A study of Mus musculus with 23 samples.

Results

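The Wnt signal that keeps the blood-brain barrier in place was followed here through 10 genes: the ligand genes Wnt7a, Wnt7b and Ndp, the receptor-complex genes Fzd4, Tspan12, Adgra2 and Reck, and Lef1, Axin2 and Apcdd1, which are read as nuclear effector, target and feedback genes of the pathway. The list was given by name, with earlier results of these data known, and all 10 were found among the 32285 genes of the table. Together they held 881952 of the 977175319 transcripts counted in the cells kept, or 0.0903%.

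In the brain, glia and neurons release Wnt7a, Wnt7b and the unrelated ligand norrin (Ndp), and endothelial cells receive them. Wnt7a and Wnt7b act on Frizzled receptors through Adgra2, also called Gpr124, and its partner Reck, whereas norrin binds Fzd4 with the help of the tetraspanin Tspan12. Both routes stabilise beta-catenin, which joins transcription factors of the Lef and Tcf family in the nucleus and switches on barrier genes along with feedback genes such as Axin2 and Apcdd1. Vessels with little of the signal, such as those of the choroid plexus, are fenestrated and express Plvap.

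The cells came from mouse brain without olfactory bulb, cerebellum, pons and medulla, taken after PBS perfusion, 24 hours after AF647-labelled antibody had been injected into the tail vein at 45 mg/kg. ATV-TfR, an antibody transport vehicle that binds the transferrin receptor, was given to TfR mu/hu KI mice, ATV-CD98hc, which binds the CD98 heavy chain, was given to CD98hc mu/hu KI mice, and C57BL/6J mice received control IgG. The knock-in lines are on the C57BL/6J background, so that treatment and genotype coincide and cannot be told apart. The mice were 12 weeks old in the design text and 3.3 months old in the sample labels, and the brains of 1 male and 1 female were pooled, 2 such pools for every treatment. Inhibitors of transcription and of translation were present during dissociation. Cells were sorted on AF647 into negative, low, medium and high bins, with gates that split the positive events of ATV-TfR brains into tertiles and were kept for the other treatments. The 23 libraries thus form 12 groups of 2 libraries each, except the control IgG negative bin, which is replicate 2 alone.

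After filtering, 234223 cells remained, 525 to 18878 per library. Their median depths were 2189 to 4949 UMIs (unique molecular identifiers, 1 per captured transcript) per cell. Before filtering, the libraries held 1861238 to 90307818 UMIs over all their barcodes. Clusters formed without the 10 genes and named from marker lists gave 97781 endothelial-like cells (41.7%) and 93544 astrocyte-like cells (39.9%), and 3.59% of cells stayed unnamed. All 12 endothelial markers were detected in the endothelial-like cells of the 21 libraries with at least 20 of them, and all 10 astrocyte markers in the astrocyte-like cells of the 17 libraries with as many of those. Barcode sequences also seen in another library made up 5.74% of kept cells, and no pair of libraries shared more than 0.952% of the smaller one. Levels are given as CPM, the UMIs of a gene per 1000000 UMIs of the cell class, as mean ± SD over pools with at least 20 cells of the class. They were not divided by transcript length, so that levels are compared between cells for 1 gene and not between genes. The classes were built from these same cells, and the comparison of classes is a description without a test.

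The 3 ligand genes were highest in astrocyte-like cells. Wnt7b stood at 101 ± 4.28 CPM there (SD, n = 5 pools, 95.3 to 106), followed by oligodendrocyte precursor-like cells at 49.7 ± 22.5 (n = 4), and the pools of these classes did not overlap. Wnt7a stood at 71.6 ± 6.45 CPM in astrocyte-like cells (n = 5, 62.2 to 78.2) and 41.6 ± 8.41 in oligodendrocyte precursor-like cells (n = 4), again without overlap. Ndp stood at 51.4 ± 5.79 CPM in astrocyte-like cells (n = 5, 44.9 to 58.3), 6.98 times its level in dividing cells, the next class. A UMI of Wnt7b was present in 32.8% of astrocyte-like cells at a median depth of 3944 UMIs, against 1.41% of microglia-like cells, which should lack the gene, at a median depth of 3518. With each cell thinned to 1000 UMIs these shares were 9.51% and 0.354%. For Wnt7a the shares were 24.8% and 1.19% before thinning and 7.15% and 0.354% after it, and for Ndp 18.4% and 0.696% before thinning and 4.70% and 0.130% after it. In endothelial-like cells, at a median depth of 3316 UMIs, 0.239% of cells had a UMI of Wnt7a, 0.302% of Wnt7b and 0.122% of Ndp. These shares lie below those of microglia-like cells and are read as background.

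The receptor genes were spread more widely over the cells of the vessel wall. Fzd4, the receptor of norrin, was highest in endothelial-like cells at 121 ± 7.53 CPM (n = 6 pools, 112 to 130), 1.99 times the 61.0 ± 5.87 of smooth muscle-like cells (n = 5), and choroid plexus epithelial-like cells held 57.2 ± 11.3 (n = 6). Tspan12 was higher in smooth muscle-like cells, at 96.8 ± 7.11 CPM (n = 5), than in endothelial-like cells at 82.2 ± 3.15 (n = 6) and astrocyte-like cells at 60.6 ± 1.51 (n = 5). Adgra2 had 91.8 ± 13.2 CPM in endothelial-like cells (n = 6), which overlapped the 87.6 ± 7.73 of fibroblast-like cells (n = 6), and pericyte-like cells followed at 75.5. Its level in astrocyte-like cells was 1.15 ± 0.277 CPM, with a UMI in 0.422% of them. Reck, a membrane-anchored protease inhibitor, had 124 ± 22.0 CPM in endothelial-like cells (n = 6), and its pools overlapped those of fibroblast-like cells at 95.4 ± 12.3 (n = 6). The norrin receptor Fzd4 and its partner Tspan12 were thus both found on endothelial-like cells, but the class with the highest level differed between them.

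Among the target genes, Lef1, the transcription factor that partners with beta-catenin, reached 820 ± 164 CPM in endothelial-like cells (n = 6, 642 to 1022), 2.96 times the next class. That class was T or NK cell-like at 277 ± 87.3 (n = 5), whose pools overlapped those of B cell-like cells at 177 ± 82.5 (n = 6). A UMI of Lef1 was present in 85.7% of endothelial-like cells (51.3% after thinning to 1000 UMIs) and in 0.603% of microglia-like cells (0.189% after thinning). Apcdd1, a membrane inhibitor of Wnt receptors, stood at 471 ± 63.9 CPM in endothelial-like cells (n = 6, 387 to 546), 3.37 times its 140 ± 6.21 in pericyte-like cells (n = 5). It was detected in 70.1% of endothelial-like cells (34.8% after thinning) and 0.325% of microglia-like cells. Axin2, a scaffold of the complex that degrades beta-catenin, did not set endothelial-like cells apart. It stood at 124 ± 13.2 CPM in pericyte-like cells (n = 5, 107 to 136) and 108 ± 10.9 in endothelial-like cells (n = 6, 92.1 to 124), and the pools overlapped. Endothelial-like cells held 2.31 times the Axin2 level of fibroblast-like cells, the class after them.

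**Figure D1:**
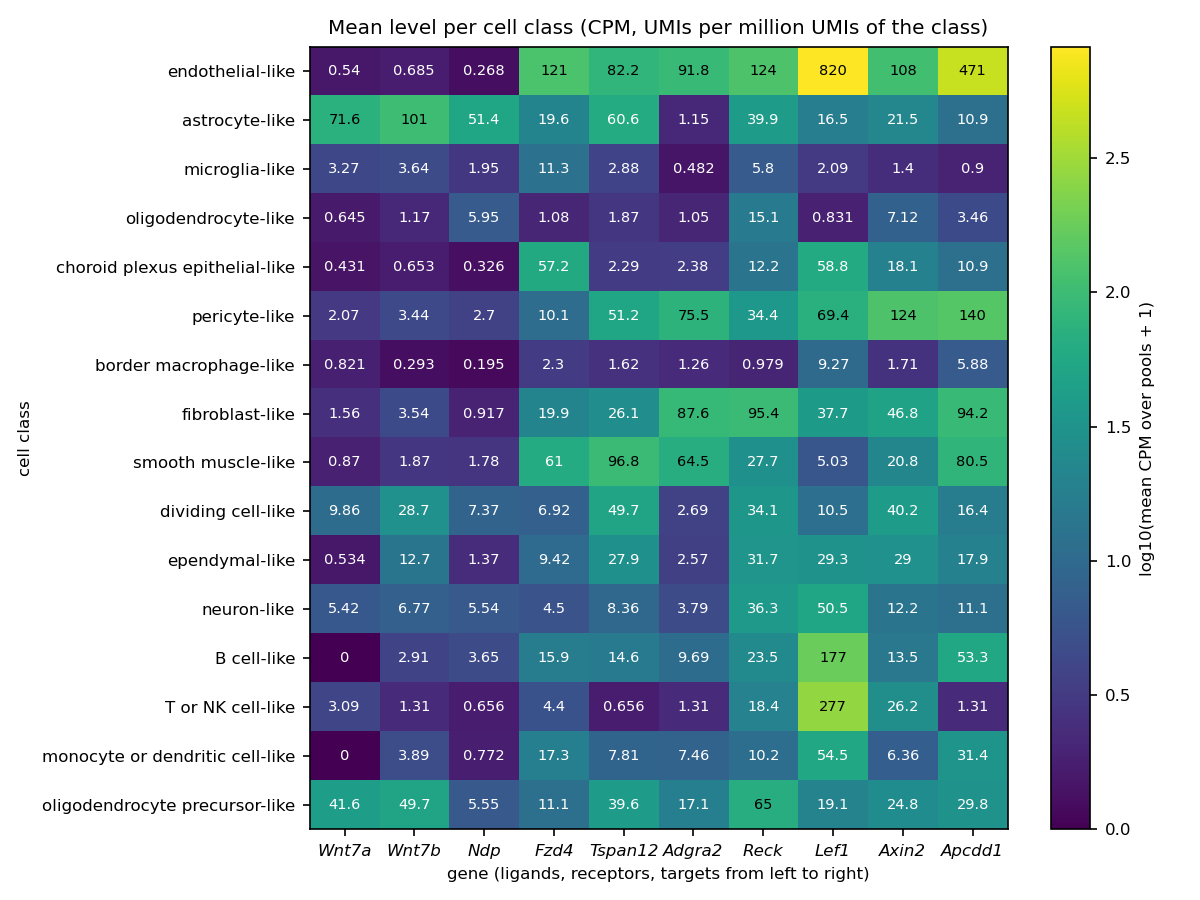
Mean level of each of the 10 genes (columns, ligands to targets from left to right) in each of 16 cell classes (rows), printed in CPM and coloured by log10 of the mean over pools plus 1. The ligand columns peak in the astrocyte-like row, with Wnt7b at 101 CPM, and Lef1 and Apcdd1 peak in the endothelial-like row at 820 and 471 CPM.

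Over 86 points of class by pool, the genes whose log2(CPM + 1) followed each member most closely were named by a fixed rule. This is a description, since points of a class are of the same cell type and points of a pool share their mice and libraries. Among 15580 genes, Lef1 was followed by Ctla2a (Pearson r = 0.86), Ly6a and Abcb1a, a drug efflux pump of the barrier. Apcdd1 was followed by Epas1 (r = 0.88), Ltbp4 and Col4a2, and Axin2 by Plod2 (r = 0.82), Nedd4 and Zic2. The nearest genes were Id1 (r = 0.78), Id3 and Bcam for Fzd4, Wwtr1 (r = 0.88), Sparcl1 and Col4a2 for Tspan12, Arhgap29 (r = 0.89), Osmr and Foxc1 for Adgra2, and Pard3 (r = 0.82), Nckap1 and Erc1 for Reck. For the ligands they were Lrtm2 (r = 0.86), Gm35040 and Fzd9 for Wnt7a, Acat3 (r = 0.91), Kcnj16 and Fabp7 for Wnt7b, and AA387883 (r = 0.80), Fam228a and Slc13a5 for Ndp. Within the 10 genes, the highest correlations were Apcdd1 with Adgra2 (r = 0.84), Wnt7a with Wnt7b (r = 0.78) and Apcdd1 with Tspan12 (r = 0.75).

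The RefSeq annotation of GRCm38.p6 gives the position of the genes. Wnt7a (ENSMUSG00000030093) spans chr6:91363981-91411353, Wnt7b (ENSMUSG00000022382) chr15:85535437-85581821 and Ndp (ENSMUSG00000040138) chrX:16885521-16911774. Fzd4 (ENSMUSG00000049791) spans chr7:89404366-89410110, Tspan12 (ENSMUSG00000029669) chr6:21771391-21879596, Adgra2 (ENSMUSG00000031486) chr8:27085520-27123436 and Reck (ENSMUSG00000028476) chr4:43875521-43944806. Lef1 (ENSMUSG00000027985) spans chr3:131110297-131224357 and Axin2 (ENSMUSG00000000142) chr11:108917828-108950783. Apcdd1 is ENSMUSG00000071847 in the files.

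Because Lef1 and Axin2 were both called higher in the high than in the negative bins of ATV-TfR mice, as described below, the 250 bases before their annotated starts were searched for CTTTGA and CTTTGT on both strands, the letters at the core of sites bound by Lef and Tcf factors. Windows of 7 of the 10 genes were used (10 windows, from the RefSeq promoter table on GRCm38.p6), and 4 of these windows held a match. Windows of Apcdd1 are not reported here. Over all genes, 9075 of 32851 windows did so (27.6%), and 255 (0.776%) held at least 3 matches. The window with 3 matches, at chr3:131156044-131156293 on the plus strand, precedes a start that lies inside the annotated span of Lef1. The window before the first Lef1 start, chr3:131110047-131110296, held none. The other Lef1 windows, chr3:131110073-131110322 and chr3:131112541-131112790, held none either. Neither did the Axin2 window, chr11:108920099-108920348, which also precedes a start inside the annotated span of its gene. All of these windows are on the plus strand. The counts per gene do not tell the starts apart. A match in capitals marks only that these letters are there, and their absence says nothing about the factor.
Lef1 inner start: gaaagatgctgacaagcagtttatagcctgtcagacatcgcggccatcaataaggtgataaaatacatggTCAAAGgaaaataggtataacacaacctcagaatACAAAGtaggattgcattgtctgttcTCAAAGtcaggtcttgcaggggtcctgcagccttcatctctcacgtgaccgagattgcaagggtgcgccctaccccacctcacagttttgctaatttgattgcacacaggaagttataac
Lef1 first start: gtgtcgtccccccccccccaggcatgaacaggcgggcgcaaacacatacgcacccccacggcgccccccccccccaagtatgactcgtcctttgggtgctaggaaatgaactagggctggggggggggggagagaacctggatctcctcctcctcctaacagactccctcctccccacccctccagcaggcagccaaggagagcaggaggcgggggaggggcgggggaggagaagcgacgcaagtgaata
Axin2 inner start: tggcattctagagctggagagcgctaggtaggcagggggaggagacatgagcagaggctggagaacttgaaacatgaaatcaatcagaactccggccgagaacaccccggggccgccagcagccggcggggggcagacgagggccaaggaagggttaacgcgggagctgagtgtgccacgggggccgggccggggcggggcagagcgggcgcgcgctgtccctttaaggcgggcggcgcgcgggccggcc
The other windows with a match, 1 in each, belonged to Tspan12, Reck and Ndp.

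The sort separated endothelial-like cells unevenly, with 57 to 125 of them in each negative bin of an ATV treatment and 9090 to 16152 in each high bin. In ATV-TfR mice, 3 of the 10 genes were higher in the high bin than in the negative bin: Apcdd1, Axin2 and Lef1, all of them target genes, and no receptor or ligand gene passed this test, although some alternatives called receptor genes, as given below. Tests were edgeR quasi-likelihood fits on UMIs summed per library, with p-values adjusted over all genes by Benjamini-Hochberg and a call below 0.05, and 4.64% of all 15749 genes tested were called higher in this comparison. Apcdd1 was at 104 and 83.5 CPM in the negative bins, 90.3 and 96.6 in the low bins, 242 and 249 in the medium bins and 413 and 434 in the high bins (replicates 1 and 2). The libraries of the medium and high bins all lay above those of the negative and low bins, and Apcdd1 rose by 2.45 ± 0.20 on the log2 scale from negative to high (log2 ± SE, edgeR, adjusted p = 4.4e-09). Axin2 went from 56.4 and 38.5 CPM in the negative bins to 94.6 and 103 in the high bins, a change of 1.30 ± 0.22 (edgeR, adjusted p = 2.7e-04). Lef1 went from 445 and 263 CPM to 747 and 654, a change of 1.25 ± 0.25 (edgeR, adjusted p = 1.46e-03). In each of these genes both high libraries lay above both negative libraries. Without ATV-TfR replicate 2, Axin2 (1.04, adjusted p = 0.0793) and Lef1 (1.04, adjusted p = 0.213) were no longer called.

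The receptor genes of the same comparison did not pass the test. Adgra2 was at 70.9 and 57.8 CPM in the ATV-TfR negative bins and 79.6 and 80.3 in the high bins (0.58, edgeR adjusted p = 0.0812). In the fit with the replicate as a block, which pairs bins of the same mice, it was called (0.55, edgeR adjusted p = 0.0487). Fzd4 was at 127 and 170 CPM in the negative bins and 114 and 120 in the high bins, and Tspan12 at 133 and 103 against 77.9 and 80.8. Reck was at 115 and 151 CPM against 114 and 112. The log2 changes were -0.03 for Fzd4, -0.31 for Tspan12 and 0.08 for Reck. DESeq2 called Tspan12 lower (-0.60, adjusted p = 0.00538) and no other receptor gene. With the 10 genes kept among the clustering genes, Tspan12 was called lower (-0.86, edgeR adjusted p = 0.00715) and Reck higher (1.19, edgeR adjusted p = 0.0171). That clustering left clusters of 2051 and 511 cells unnamed, whose leading genes include the arterial markers Gkn3 and Fbln5. The cells compared thus differed from those of the main fit, and the part of this in the calls was not tested. The median log2 change of the 10 genes was 0.03, beside 0.22 over all genes tested. With the RLE scaling in place of TMM, the median over all genes in endothelial-like cells shifted by -0.28 in this comparison and by -0.22 for ATV-CD98hc, and changes are given relative to TMM.

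In ATV-CD98hc mice, 2 of the 10 genes were called higher in the high than in the negative bin, Apcdd1 and Axin2, where 1.62% of all genes were called higher. Apcdd1 was at 163 and 196 CPM in the negative bins, 295 and 278 in the low bins, 535 and 443 in the medium bins and 594 and 490 in the high bins. No library of a higher bin overlapped the negative bins, and the change from negative to high was 1.83 ± 0.20 (log2 ± SE, edgeR, adjusted p = 1.1e-06). Axin2 went from 53.0 and 46.1 CPM to 130 and 111, a change of 1.48 ± 0.26 (edgeR, adjusted p = 7.89e-04). It was not called without ATV-CD98hc replicate 1 (1.46, adjusted p = 0.102). Lef1 was at 657 and 410 CPM in the negative bins and 967 and 644 in the high bins, so that the groups overlapped (0.78 ± 0.26, edgeR adjusted p = 0.0926). In each pool the high bin lay above the negative bin, and with the replicate as a block Lef1 was called (0.79, edgeR adjusted p = 1.33e-04). The 4 receptor genes had changes of 0.44 (Fzd4), 0.36 (Adgra2), 0.28 (Tspan12) and 0.21 (Reck), none of them called. The median of the 10 genes was 1.13 as fitted, and 0.32 with the 3 ligand genes, which had 0 UMIs in the negative bins, put at the bound that 3 UMIs over the group allow. The median over all genes was 0.25.

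**Figure D2:**
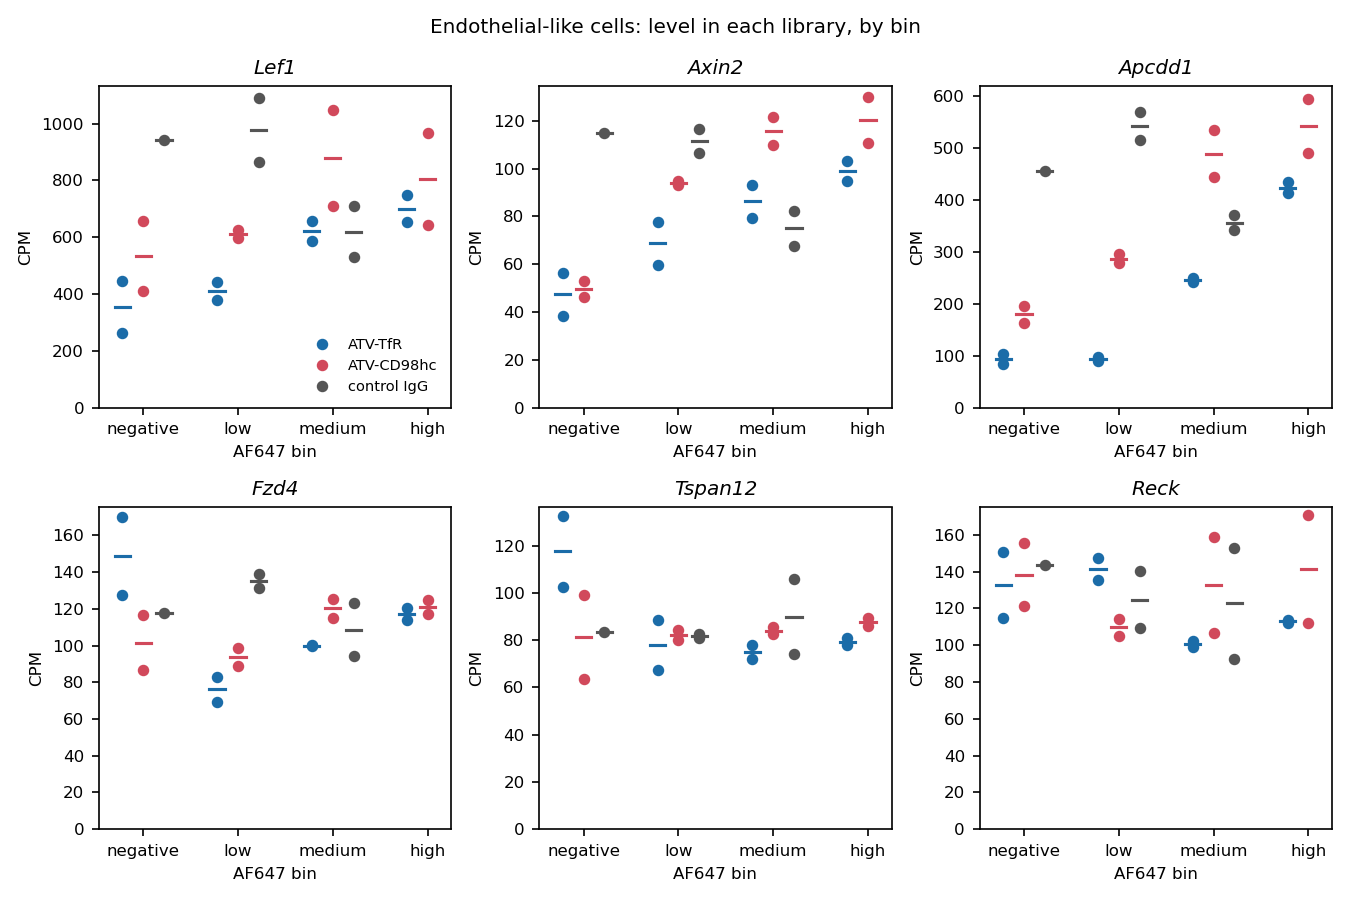
Level in endothelial-like cells (CPM, vertical axis from 0) of Lef1, Axin2, Apcdd1, Fzd4, Tspan12 and Reck in each library, by AF647 bin (horizontal axis) and treatment (colour), with a bar at the mean of a group. Apcdd1 in ATV-TfR mice climbed from 104 and 83.5 CPM in the negative bins to 413 and 434 in the high bins, while control IgG cells stood at 455 CPM in their negative bin.

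The ATVs were then compared with each other. The difference between their high-minus-negative changes was called for none of the 10 genes (edgeR, 1 gene at an unadjusted p under 0.05, none with DESeq2) and for 0.00635% of all genes. It was 0.62 ± 0.28 for Apcdd1 (edgeR adjusted p = 0.952), 0.47 ± 0.36 for Lef1 and -0.18 ± 0.37 for Axin2. Between the high bins themselves, ATV-TfR minus ATV-CD98hc, none of the 10 genes was called either (edgeR, 2 genes at an unadjusted p under 0.05, none with DESeq2), with 0.279% of all genes called. The changes there were -0.29 ± 0.16 for Apcdd1, -0.22 ± 0.16 for Axin2 and -0.13 ± 0.23 for Lef1. A p that misses the threshold does not show that the ATVs acted alike. In the blocked fit 3 genes were called between the high bins, Adgra2 (-0.36), Reck (-0.45) and Wnt7b (2.44), but the block does not pair mice across treatments. Wnt7b in this class was read above as background, with 4 UMIs in 16523 capillary cells of the ATV-CD98hc high bins. Summed astrocyte markers were 101.8 to 119.5 CPM in the ATV-TfR high bins and 66.5 to 69.9 in those of ATV-CD98hc. Their part was not tested, and no difference in Wnt7b is read from this call.

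The medium bins already showed part of this step. In ATV-TfR mice, Apcdd1 (1.46 ± 0.20, edgeR adjusted p = 2.95e-05), Axin2 (0.90 ± 0.23, adjusted p = 0.0193) and Lef1 (0.87 ± 0.25, adjusted p = 0.0433) were called higher in the medium than in the negative bin, with 1.92% of all genes called higher. The call of Lef1 was lost in 10 of 15 alternatives, among them without control IgG replicate 1 (0.86, adjusted p = 0.0642), without control IgG replicate 2 (0.85, adjusted p = 0.0589) and with ATV-TfR replicate 1 (1.26, adjusted p = 0.242) or replicate 2 (0.62, adjusted p = 0.734) left out. Axin2 was not called without ATV-TfR replicate 1 (1.38, adjusted p = 0.102) or replicate 2 (0.56, adjusted p = 0.653) or with doublets kept (0.56, adjusted p = 0.131). Apcdd1 was not called without ATV-TfR replicate 2 (1.29, adjusted p = 0.059). In ATV-CD98hc mice, Apcdd1 (1.64 ± 0.20, edgeR adjusted p = 8.2e-06) and Axin2 (1.38 ± 0.26, adjusted p = 2.28e-03) were called higher in the medium bin, with 1.09% of all genes called higher. Axin2 was not called without ATV-CD98hc replicate 1 (1.40, adjusted p = 0.174) or replicate 2 (1.30, adjusted p = 0.0558). In capillary cells alone (at least 5 per library) none of these medium calls held. In ATV-TfR mice the changes there were 0.23 for Apcdd1 (edgeR adjusted p = 0.908), -0.23 for Axin2, in the other direction (0.932), and 0.13 for Lef1 (0.944). In ATV-CD98hc mice they were 0.46 for Apcdd1 (0.744) and 1.44 for Axin2 (0.614). In the blocked fit Tspan12 was also called in ATV-TfR, lower (-0.62, edgeR adjusted p = 0.0171), and Lef1 in ATV-CD98hc, higher (0.87, edgeR adjusted p = 2.06e-05). DESeq2 called Tspan12 (-0.71, adjusted p = 0.00179) and Fzd4 (-0.55, adjusted p = 0.0209) lower in the ATV-TfR medium bin, and Tspan12 was also called there with RLE scaling (-0.70, edgeR adjusted p = 0.0391).

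Between the low and negative bins, Fzd4 was the only gene of the 10 called in ATV-TfR mice, with 0.406% of all genes called lower. It was at 127 and 170 CPM in the negative bins and 69.2 and 83.1 in the low bins, a change of -0.95 ± 0.21 (edgeR, adjusted p = 0.0324), and the groups did not overlap. Leaving out ATV-TfR replicate 1 (-1.02, adjusted p = 0.713) or replicate 2 (-0.88, adjusted p = 0.773) ended the call, and in capillary cells alone (at least 5 per library) the change was 0.59 and not called (edgeR adjusted p = 0.855). Fenestrated endothelial cells, in which Fzd4 was highest as described below, made up 38.4% and 31.7% of endothelial-like cells in the negative bins and 4.20% and 7.30% in the low bins. Whether this shift had a part in the Fzd4 call was not tested. In ATV-CD98hc mice none of the 10 genes was called between low and negative bins (edgeR, 3 genes at an unadjusted p under 0.05, 1 with DESeq2), with 1.42% of all genes called in either direction. Apcdd1 was called there in the blocked fit (0.73, edgeR adjusted p = 0.0119).

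Control IgG gave the background of the sort without an antibody directed at TfR or CD98hc. Its high bins held 10 and 14 endothelial-like cells, too few to fit, and its negative bin is 1 library whose spread is taken from the other groups. In that negative bin Apcdd1 stood at 455 CPM, Lef1 at 942 and Axin2 at 115, near the high bins of the ATVs rather than their negative bins. In the low bins Apcdd1 was at 515 and 568 CPM, Lef1 at 864 and 1091 and Axin2 at 107 and 117. In the medium bins, with 27 and 42 cells, the levels were 341 and 370 CPM for Apcdd1, 529 and 709 for Lef1 and 82.3 and 67.8 for Axin2. From negative to low, only Wnt7a and Wnt7b of the 10 genes were called, both lower (edgeR adjusted p = 0.0154 and 0.0168), with 3.79% of all genes called lower. They had 11 and 14 UMIs in 2538 negative cells and 0 in 3361 low cells, so that they were at least 6.41-fold and 8.15-fold lower, counting 3 UMIs over the low group as the floor. With 1 negative library, and at shares read above as background, no difference between the bins is read from these calls. Both calls were lost without either ATV-TfR replicate, with log2 changes fitted against 0 UMIs and adjusted p of 0.056 to 0.0655. The 10 markers of astrocytes, the class with the highest ligand levels, summed to 383 CPM in the negative bin and 41.6 and 54.9 in the low bins, and their part in this result was not tested. From negative to medium none of the 10 genes was called (edgeR, 3 genes at an unadjusted p under 0.05, none with DESeq2), with 0.381% of all genes called.

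The makeup of the endothelial-like cells changed along the same bins. Capillary cells were 9.60% and 7.32% of endothelial-like cells in the ATV-TfR negative bins, 10.8% and 9.87% in the low, 39.6% and 35.9% in the medium and 75.9% and 77.3% in the high bins. In ATV-CD98hc mice they were 19.2% and 31.6% in the negative, 41.2% and 44.5% in the low, 65.5% and 73.8% in the medium and 78.3% and 80.8% in the high bins. Arterial cells were 23.2% and 32.9% of endothelial-like cells in the ATV-TfR negative bins and 0.152% and 0.123% in the medium bins. In the control IgG negative bin, 64.6% of endothelial-like cells were capillary. Fenestrated cells, given above for the ATV-TfR negative and low bins, were 8.97% and 14.0% in the ATV-CD98hc negative bins and at most 0.0943% in any medium or high bin of either ATV. The remaining cells were venous or belonged to clusters that the markers did not name, which took the largest part of the ATV-TfR low bins. Over all libraries, unnamed clusters of 10369 and 7773 cells matched the capillary markers best and the arterial markers next. The arterial marker Hey1 was among the leading genes of both. The arterial shares and levels given here cover the named cluster of 265 cells only, so arterial-like cells without a name are not counted in them.

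The genes differed widely between these subtypes, which were clustered without them. Apcdd1 was at 541 ± 69.8 CPM in capillary cells (69281 cells, n = 6 pools), 363 ± 40.3 in venous cells (1432 cells, n = 6), 36.6 ± 15.5 in arterial cells (265 cells, n = 5) and 47.2 ± 41.2 in fenestrated cells (315 cells, n = 5). Axin2 followed the order capillary (113 ± 11), venous (78.1 ± 11.8), arterial (52.0 ± 14.4) and fenestrated (9.64 ± 10.4, 0 to 25.1). Lef1 was alike in capillary (866 ± 175) and venous cells (867 ± 186), 281 ± 82.9 in arterial cells and 76.2 ± 81.0 in fenestrated cells. The target genes were thus lowest in arterial and fenestrated cells, which together were most of the ATV-TfR negative bins. The part of these shares in the calls between bins was not tested. Among the receptor genes, Reck, Fzd4 and Tspan12 followed other orders, which were not tested. Reck was highest in arterial cells at 384 ± 74.9 CPM, against 133 ± 26.2 in capillary and 65.3 ± 10.8 in venous cells. Fzd4 was highest in fenestrated cells at 287 ± 32.0, against 128 ± 6.38 in capillary and 39.1 ± 15.2 in arterial cells, and Tspan12 likewise at 260 ± 35.7 against 80.8 ± 3.38 and 42.6. Adgra2, like the target genes, was higher in capillary (93.1 ± 14.3) and venous cells (93.6) than in fenestrated cells (19.1 ± 10.5). Fenestrated cells thus held the norrin receptor pair at its highest level, and less of the Wnt7 co-receptor Adgra2 than capillary and venous cells. Reck, the partner of Adgra2, is given here for arterial, capillary and venous cells only.

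**Figure D3:**
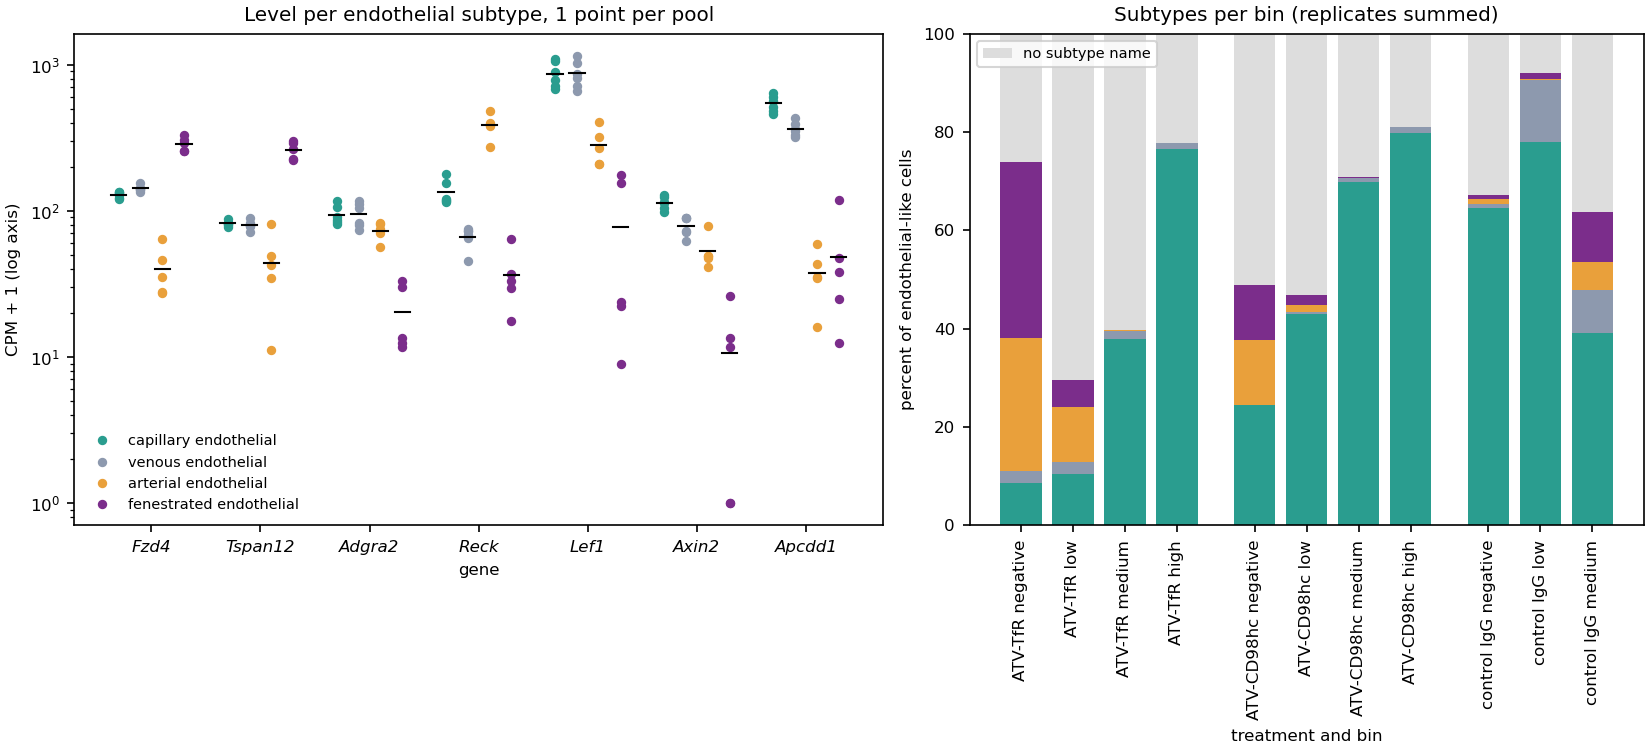
Left, level of the 7 receptor and target genes in each endothelial subtype (CPM + 1 on a log axis, 1 point per pool, bar at the mean); right, percent of endothelial-like cells in each subtype by treatment and bin, with the replicates of a group summed, in the same colours, and grey for cells without a subtype name. Reck stands highest in arterial cells and Fzd4 and Tspan12 in fenestrated cells, and the capillary part is smallest in the ATV-TfR negative bins (9.60% and 7.32% in their libraries) and stands at 75.9% to 80.8% in the libraries of the ATV high bins.

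Restricted to capillary cells, none of the 3 target genes was called between the high and negative bins. The negative bins held 12 and 6 capillary cells in ATV-TfR and 15 and 18 in ATV-CD98hc, so that a fit against them needed a lower minimum of 5 cells. In that fit, high minus negative, Apcdd1 changed by 0.57 in ATV-TfR (edgeR adjusted p = 0.642) and 0.55 in ATV-CD98hc (0.531). Lef1 changed by 0.15 (0.927) and 0.18 (0.899), and Axin2 by 0.22 (0.919) and 1.54 (0.339). Apcdd1 in capillary cells was at 398 and 467 CPM in the ATV-TfR negative bins, 354 and 340 in the low, 406 and 418 in the medium and 462 and 481 in the high bins. In ATV-CD98hc mice it was at 528 and 457 CPM in the negative, 538 and 451 in the low, 634 and 504 in the medium and 650 and 528 in the high bins. In both treatments the negative and high bins of Apcdd1 thus lay closer together in capillary cells than over all endothelial-like cells, a difference that was not tested. The fitted change of Axin2 in ATV-CD98hc mice was 1.54 in capillary cells and 1.48 over all endothelial-like cells, and it was called only in the latter. The capillary value rests on 15 and 18 cells in the negative bins, and these changes were not compared by a test.

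The low bins held enough capillary cells for a test against the high bins, a comparison added after the data were seen. In ATV-TfR mice none of the 9 genes tested (Ndp had too few UMIs) was called (edgeR, 4 genes at an unadjusted p under 0.05, 1 with DESeq2), with 0.224% of all genes called in either direction. Apcdd1 changed by 0.73 ± 0.23 (edgeR adjusted p = 0.30), Axin2 by 0.86 ± 0.34, Adgra2 by 1.12 ± 0.48 and Lef1 by -0.05. Their low bins had 36 and 23 capillary cells, and the median change of the 9 genes was 0.50, or 0.46 with the gene at 0 UMIs put at its bound, beside 0.37 over all genes. In ATV-CD98hc mice only the ligands Wnt7a and Wnt7b were called, both lower in the high bin, with 6.57% of all genes called lower. Wnt7b had 18 UMIs in 1844 capillary cells of the low bins and 4 in 16523 of the high bins, a ratio of 79.8 (95% interval 26.3 to 324, counting error only; edgeR adjusted p = 1.8e-04). Wnt7a had 5 and 3 UMIs, a ratio of 29.6 (5.75 to 190; edgeR adjusted p = 0.0333). Leaving out any ATV-CD98hc or ATV-TfR replicate ended the call of Wnt7a, with log2 changes of -4.31 to -4.87 over its alternatives. Summed astrocyte markers in endothelial-like cells were 1117 and 1425 CPM in the ATV-CD98hc low bins and 66.5 and 69.9 in the high bins. Their part in the ligand counts was not tested. The fit with the replicate block also called Apcdd1 (0.35, edgeR adjusted p = 0.0428) and Tspan12 (0.39, adjusted p = 0.0204) higher in the high bin.

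Genes elsewhere in the pathway were also called between the high and negative bins of endothelial-like cells. Of 10 barrier genes downstream of endothelial Wnt signalling, 8 were called higher and 1 lower in ATV-TfR mice (edgeR; median 1.11 against 0.22 over all genes), where 4.64% of all genes were called higher and 6.67% lower. In ATV-CD98hc mice 5 were called higher and 1 lower (median 0.77 against 0.25), with 1.62% of all genes called higher and 3.13% lower. Within capillary cells, high minus low, none of the 10 was called in either treatment (edgeR; medians 0.44 and 0.21 against 0.37 and 0.01 over all genes), with 0.224% and 7.40% of all genes called in either direction. Mfsd2a, a lipid transporter of the barrier, went from 56.4 and 51.4 CPM in the ATV-TfR negative bins to 373 and 392 in the high bins (3.10 ± 0.29, edgeR adjusted p = 5.12e-08). In ATV-CD98hc mice it went from 110 and 121 CPM to 362 and 480 (2.12 ± 0.29, adjusted p = 2.56e-05). Plvap, the diaphragm protein of fenestrated vessels, was the gene called lower. It stood at 1231 and 1159 CPM in the ATV-TfR negative bins and 0.487 and 0.0162 in the high bins, and in ATV-CD98hc mice at 194 and 450 CPM and at 0.903 and 1.04. Mfsd2a and Plvap are also among the markers that name the capillary and fenestrated subtypes, whose shares changed between these bins. The part of that change in the calls was not tested.

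Feedback targets were called in both directions. Of 7 tested among 8, 2 were called higher and 2 lower in ATV-TfR mice, and 1 each way in ATV-CD98hc mice, beside the shares of all genes just given (4.64% and 6.67%, 1.62% and 3.13%). Nkd1, a cytoplasmic Wnt antagonist, was at 70.9 and 77.1 CPM in the ATV-TfR negative bins and 281 and 320 in the high bins (2.32 ± 0.26, edgeR adjusted p = 7.25e-07). In ATV-CD98hc mice it rose from 106 and 115 CPM to 289 and 371 (1.82 ± 0.27, adjusted p = 7.91e-05). Nkd2 (-2.67) and Ccnd1, a cyclin (-1.37), were called lower in ATV-TfR mice, and Ccnd1 in ATV-CD98hc mice (-1.28). Of 6 extracellular inhibitors tested among 12, Notum, an enzyme that inactivates Wnt ligands, was called higher in ATV-TfR mice (25.5 and 25.7 CPM to 99.1 and 108, 2.31 ± 0.28). Dkk2 was called lower in both treatments (-4.68 and -3.88), on 10 and 5 UMIs in the ATV-TfR negative bins and 2 and 4 in those of ATV-CD98hc.

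The counts in the remaining lists stand beside the same shares of all genes, 4.64% higher and 6.67% lower in ATV-TfR mice and 1.62% and 3.13% in ATV-CD98hc mice, and nothing is read from them for a list as a group. Of 17 intracellular genes, 3 were called higher and 2 lower in ATV-TfR mice, led by Tcf7l1 (-1.51), Ctnnb1, which encodes beta-catenin (1.02), and Tcf7 (1.01). In ATV-CD98hc mice Ctnnb1 (0.79) was called higher and Tcf7l1 (-1.33) lower. Within capillary cells, Ctnnb1 was higher in the high than in the low bins, by 1.14 ± 0.22 in ATV-TfR (edgeR adjusted p = 0.0462), the only gene of the 7 lists called there, and by 1.00 ± 0.17 in ATV-CD98hc (adjusted p = 9.84e-04). In ATV-CD98hc capillary cells Ccnd1 was also called higher (1.43), and Fzd9 (-5.26), Sfrp5 (-4.55), Fzd2 (-3.74) and Dkk3 (-2.39) lower. Summed astrocyte markers in endothelial-like cells were 1117 and 1425 CPM in the ATV-CD98hc low bins and 66.5 and 69.9 in the high bins. Their part in these calls was not tested. Of 16 further receptor genes Fzd6 alone was called, in ATV-TfR mice (0.82). Of 8 ligand genes tested among 21, Wnt11 (-3.41) and Wnt5b (-2.68) were called lower in ATV-TfR mice and Wnt5b (-2.95) in ATV-CD98hc mice. Neither of the ligand secretion genes Porcn and Wls was called. The test of the difference between the ATVs called no gene of any of the 7 lists.

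Endothelial-like cells were also compared between treatments, summed over all bins of a pool. None of the 10 genes was called in ATV-TfR minus control IgG, ATV-CD98hc minus control IgG or ATV-TfR minus ATV-CD98hc, and 0% of 16622 genes were called in each (edgeR). No gene of the 10 had an unadjusted p under 0.05, and 1318, 881 and 416 of all genes did. DESeq2 called none of the 10 and 227, 149 and 16 of all genes. Lef1 was at 730 and 642 CPM in ATV-TfR, 995 and 674 in ATV-CD98hc and 857 and 1022 in control IgG pools, which overlapped between the ATVs and between ATV-CD98hc and control IgG. Both ATV-TfR pools lay below both control IgG pools. With low bins alone, 7, 7 and 1 of the 10 genes were called, where 20.8%, 20.7% and 3.83% of all genes were called in either direction. There Lef1 differed by -1.32 and Apcdd1 by -2.62 between ATV-TfR and control IgG, and by -0.75 and -0.997 between ATV-CD98hc and control IgG. Capillary cells were 10.8% and 9.87% of the ATV-TfR low bins and 70.01% and 81.6% of the control IgG low bins, so that bin makeup differed along with the treatment.

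In astrocyte-like cells, the source of the ligands, 4 of the 10 genes were called higher in the high than in the negative bin of ATV-TfR mice, with 9.45% of all 16089 genes called higher. The high bins held 570 and 391 of these cells. Wnt7b was at 103 and 91.2 CPM in the negative bins, 95.5 and 99.4 in the low, 104 and 111 in the medium and 124 and 128 in the high bins. Both high libraries lay above every other, with a change of 0.50 ± 0.12 (log2 ± SE, edgeR, adjusted p = 6.79e-03). Tspan12 was at 58.6 and 51.3 CPM in the negative bins and 80.1 and 79.3 in the high bins (0.66 ± 0.10, edgeR adjusted p = 1.57e-04). Apcdd1 was at 7.05 and 9.02 CPM and then 13.9 and 13.7 (0.90 ± 0.21, adjusted p = 5.29e-03), and Fzd4 at 19.3 and 20.8 and then 33.1 and 26.9 (0.72 ± 0.19, adjusted p = 0.0145). The groups did not overlap for any of these 4 genes. The median of the 10 genes was 0.33, beside -0.03 over all genes. In the blocked fit Wnt7a (0.31, edgeR adjusted p = 0.0408) and Ndp (0.35, adjusted p = 0.0469) were called as well.

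Each of these 4 calls was lost when either ATV-TfR replicate was left out. Without ATV-TfR replicate 1 the changes were 0.58 for Wnt7b (adjusted p = 0.159), 0.71 for Tspan12 (0.0504), 0.69 for Apcdd1 (0.336) and 0.46 for Fzd4, and none was called. Without ATV-TfR replicate 2 they were 0.42 (0.272), 0.61 (0.0595), 1.14 (0.0548) and 0.94, again not called. Endothelial RNA was present along with them. The 12 endothelial markers summed to 10.8 and 11 CPM in the ATV-TfR negative bins and 205 and 264 in the high bins, and 31.6% and 38.6% of the high-bin cells lacked any UMI of them, against 95.3% and 97.4% in the negative bins. With only the cells that lacked them, Apcdd1 (1.20, adjusted p = 0.0134), Tspan12 (0.64, adjusted p = 7.57e-03) and Wnt7b (0.57, adjusted p = 0.0156) stayed called, and Fzd4 did not (0.40, adjusted p = 0.444). Cells in the clusters named telencephalic were 39.6% and 38.0% of the negative and 17.7% and 24.0% of the high bins, but the 5 telencephalic markers summed over all astrocyte-like cells went the other way, from 1183 and 1426 CPM to 1633 and 1862. The 10 astrocyte markers went from 18800 and 18340 CPM to 27330 and 27500. The part of these shifts in the 4 calls was not tested. Within telencephalic astrocytes none of the 4 was called, with changes of 0.18 (Wnt7b, adjusted p = 0.676), 0.22 (Tspan12, 0.625), -0.03 (Apcdd1, 0.994) and 0.33 (Fzd4). Within non-telencephalic astrocytes Wnt7b (0.54, adjusted p = 0.0475), Tspan12 (0.90, adjusted p = 0.0129) and Apcdd1 (1.39, adjusted p = 0.0378) were called. Non-telencephalic astrocytes were 30.35% and 23.0% of the high bins, and cells without a subtype name were in neither fit.

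In ATV-CD98hc mice the astrocyte-like cells of the high bins, 184 and 204 of them, showed the largest difference of any of the 10 genes in this cell class. Lef1 was at 21.5 and 18 CPM in the negative bins, 11.1 and 13.1 in the low, 16.8 and 14.1 in the medium and 1.25 and 3.07 in the high bins. The high libraries lay below every other, at 3 UMIs in 388 cells against 454 UMIs in 5498 negative cells, a ratio of 9.86 (95% interval 3.35 to 48.0, counting error only). The log2 change was -3.33 ± 0.52 (edgeR, adjusted p = 2.21e-04). Axin2 was at 27.0 and 25.7 CPM in the negative and 3.74 and 10.7 in the high bins (-1.99 ± 0.47, adjusted p = 0.0101), on 594 and 10 UMIs, a ratio of 3.87 (2.09 to 8.11). With 4.02% of all genes called lower, these were the only 2 of the 10. Axin2 was not called without ATV-CD98hc replicate 1 (-1.31, adjusted p = 0.293). In ATV-TfR mice Lef1 was at 19.0 and 16.9 CPM in the negative and 14.2 and 10.9 in the high bins, and was not called.

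The kind of astrocyte also differed between the bins. Telencephalic astrocytes were 36.0% and 50.5% of astrocyte-like cells in the ATV-CD98hc negative bins, 19.6% and 22.1% in the low, 4.67% and 6.38% in the medium and 2.17% and 5.88% in the high bins. From the negative to the low bins, both this share and Lef1 were lower. From the low to the medium bins the share was lower and Lef1 was not. From the medium to the high bins Lef1 was lower and the share differed little. Cells without any UMI of the endothelial markers were 87.8% and 87.6% of the low, 30.2% and 46.3% of the medium and 58.2% and 58.3% of the high bins. Endothelial-like cells held Lef1 at 820 CPM. The steps of Lef1 between bins thus ran along with endothelial RNA as well as with the telencephalic share. The part of either in these steps was not tested. Non-telencephalic astrocytes were 28.2% and 23.5% of the negative and 43.5% and 30.9% of the high bins, and the other cells had no subtype name. Over all libraries, clusters of 7392, 6481 and 5570 cells without a name matched the telencephalic markers best. Those of 7476 and 7198 cells matched the non-telencephalic markers best. The shares count named clusters only. The 5 telencephalic markers summed over all astrocyte-like cells differed less between bins, from 1167 and 1730 CPM in the negative to 588 and 801 in the high bins, with 1376 to 1399 in the low and 825 and 1093 in the medium bins. Over all pools, Lef1 was at 29.5 ± 6.27 CPM in telencephalic astrocytes (27536 cells, n = 5) and 2.86 ± 0.695 in non-telencephalic ones (31303 cells, n = 5), and Axin2 at 32.2 ± 2.63 against 9.53 ± 1.47. Ndp was at 70.9 ± 9.33 against 36.1 ± 4.59, Tspan12 at 73.8 ± 2.19 against 38.4 ± 2.23, and Reck and Fzd4 were also higher in telencephalic astrocytes. Wnt7a went the other way, at 64.6 ± 6.47 in telencephalic and 85.7 ± 7.41 in non-telencephalic astrocytes, and Wnt7b was at 96.8 ± 6.42 and 108 ± 4.86 with overlapping pools. Within non-telencephalic astrocytes the high-minus-negative change of Lef1 in ATV-CD98hc mice was -0.76 (edgeR adjusted p = 0.911) and that of Axin2 -2.93 (adjusted p = 0.192). The telencephalic cells of the high bins were too few to fit. In cells without an endothelial-marker UMI, Lef1 stayed called (-2.51, adjusted p = 0.0193) and Axin2 did not (-1.36, adjusted p = 0.123).

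**Figure D4:**
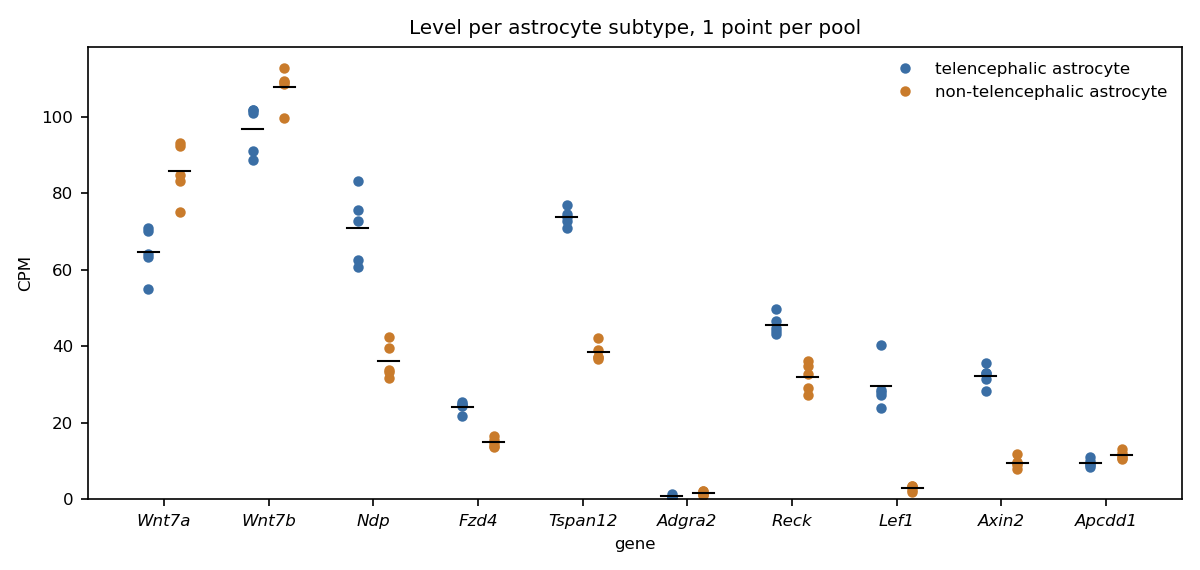
Level of each of the 10 genes (CPM) in telencephalic and non-telencephalic astrocytes, 1 point per pool (n = 5) with a bar at the mean. Lef1, Axin2, Ndp and Tspan12 are higher in telencephalic astrocytes in every pool, with Lef1 at 29.5 against 2.86 CPM, and Wnt7a is higher in non-telencephalic ones.

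In the low bins of ATV-CD98hc mice, Lef1 was also lower than in the negative bins (-0.70 ± 0.12, edgeR adjusted p = 1.38e-03), the only call of the 10 genes there, with 1.61% of all genes called lower. It was not called without ATV-CD98hc replicate 1 (-0.43, adjusted p = 0.131), nor within telencephalic (-0.28, adjusted p = 0.478) or non-telencephalic astrocytes (-0.27, adjusted p = 0.972). With the replicate as a block Axin2 was called lower too (-0.39, edgeR adjusted p = 0.033). In ATV-TfR mice none of the 10 genes was called in the low bin (edgeR, none at an unadjusted p under 0.05, none with DESeq2; 1.79% of all genes in either direction) or in the medium bin (2 at an unadjusted p under 0.05, none with DESeq2; 5.35%). For ATV-TfR, Lef1 was at 17.8 and 18 CPM in the low and 14.5 and 15.3 in the medium bins.

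In the medium bins of ATV-CD98hc mice, Apcdd1 and Adgra2 were called higher than in the negative bins, with 7.22% of all genes called higher, and Ndp lower, with 7.76% called lower. Apcdd1 was at 10.9 and 10.9 CPM in the negative and 18.1 and 18.4 in the medium bins, without overlap (0.78 ± 0.15, edgeR adjusted p = 1.07e-03). Adgra2 was at 0.855 and 1.26 CPM and then 3.78 and 2.27 (1.63 ± 0.49, adjusted p = 0.0281), on 22 and 39 UMIs, a ratio of 3.05 (1.76 to 5.4). It was not called without ATV-CD98hc replicate 1 (0.89, adjusted p = 0.484) or replicate 2 (2.18, adjusted p = 0.0591), nor within telencephalic astrocytes, where the fitted change turned against 0 UMIs (-5.13, adjusted p = 0.829). Ndp was at 43.8 and 62.4 CPM in the negative and 31.8 and 40.8 in the medium bins, and both medium libraries lay below both negative ones (-0.48 ± 0.14, adjusted p = 0.0284). It was not called without ATV-CD98hc replicate 2 (-0.42, adjusted p = 0.0523) or without ATV-TfR replicate 1 or 2 (adjusted p = 0.0783 and 0.0787). The endothelial markers summed to 8.3 to 14.2 CPM in the negative bins and 287 to 300 in the medium bins. In cells without a UMI of them, Apcdd1 (0.51, adjusted p = 0.121), Adgra2 (1.51, adjusted p = 0.125) and Ndp (-0.44, adjusted p = 0.124) were not called. Nor were Apcdd1 and Ndp called within telencephalic (0.18, adjusted p = 0.933, and -0.12, adjusted p = 0.902) or non-telencephalic astrocytes (0.56, adjusted p = 0.304, and -0.28, adjusted p = 0.538), whose shares differed between these bins as given above. With the replicate as a block Axin2 was called lower (-0.54, edgeR adjusted p = 8.98e-03).

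The medium-minus-negative change of Ndp was called different between the ATVs, a call that did not hold under 8 of 16 alternatives. Ndp was at 56.0 and 49.2 CPM in the ATV-TfR negative bins and 58.6 and 56.9 in the medium bins, higher in both pools, whereas both ATV-CD98hc medium bins, given above, lay below the negative bins. The difference of the changes, ATV-TfR minus ATV-CD98hc, was 0.68 ± 0.19 (log2 ± SE, edgeR, adjusted p = 0.0392), the only one of the 10 genes called, with 2.99% of all genes called higher. Over the alternatives the difference ran from 0.24 to 0.75 and the adjusted p from 7.84e-04 to 0.903. Among them, it was 0.74 with ATV-TfR replicate 1 left out (adjusted p = 0.227), 0.63 with replicate 2 left out (0.404) and 0.64 without control IgG replicate 2 (0.056). It was 0.24 within telencephalic (0.903) and 0.62 within non-telencephalic astrocytes (0.232). The clusters that held the class differed between the groups compared. Telencephalic astrocytes, where Ndp was higher, went from 39.6% and 38.0% to 27.5% and 31.2% between the negative and medium bins of ATV-TfR mice and from 36.0% and 50.5% to 4.67% and 6.38% in ATV-CD98hc mice. The part of these shares in the Ndp call was not tested.

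**Figure D5:**
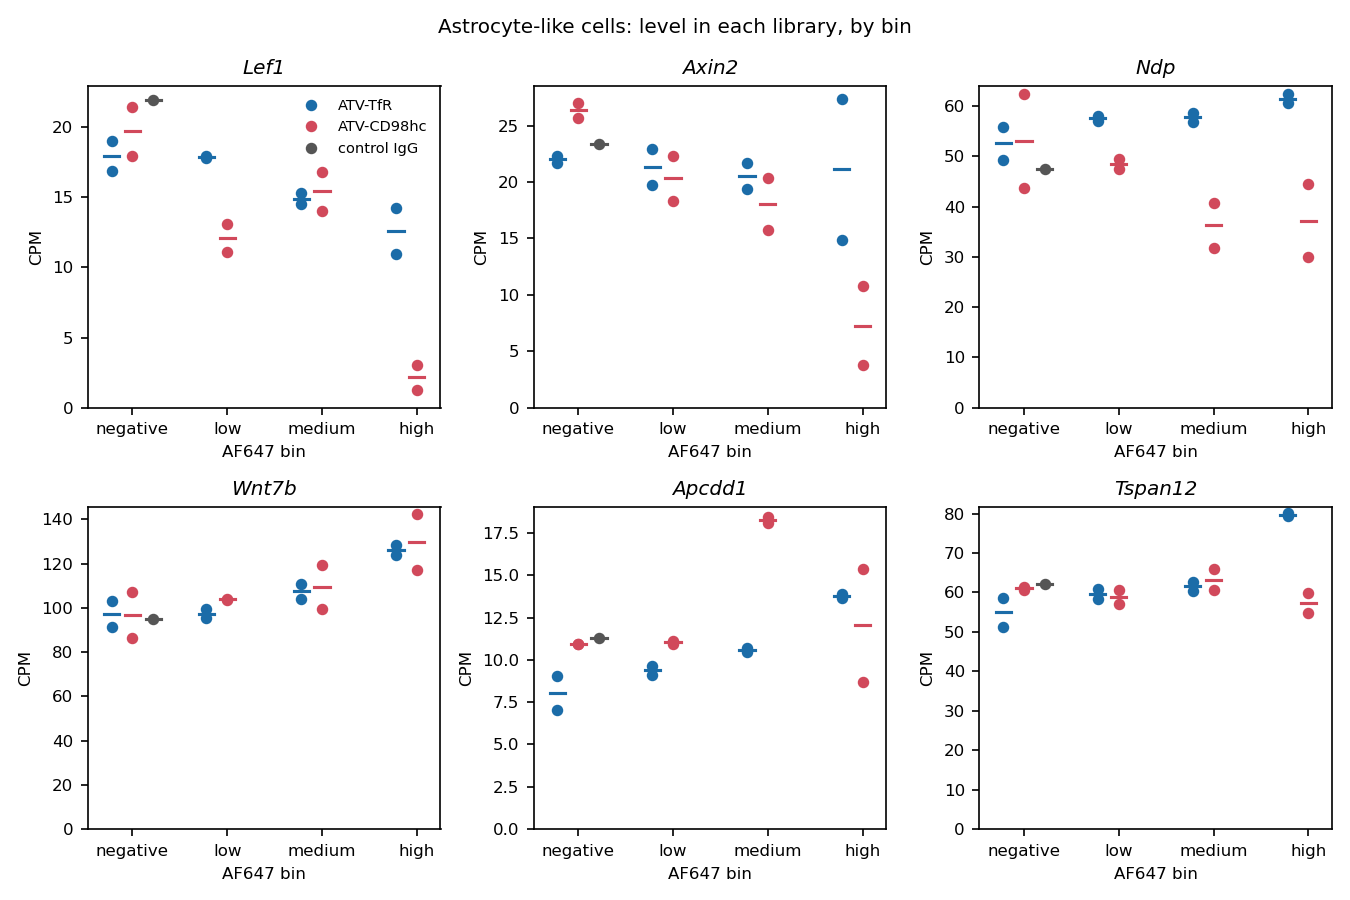
Level in astrocyte-like cells (CPM, vertical axis from 0) of Lef1, Axin2, Ndp, Wnt7b, Apcdd1 and Tspan12 in each library with at least 20 such cells, by AF647 bin and treatment, with a bar at the mean of a group. Lef1 in the ATV-CD98hc high bins lies at 1.25 and 3.07 CPM, below all other libraries, and Wnt7b in the ATV-TfR high bins lies at 124 and 128 CPM.

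Other pathway genes were also called in astrocyte-like cells. Of the 10 barrier genes, 5 were called higher and none lower between the high and negative bins of ATV-TfR mice, and 4 higher and 1 lower in ATV-CD98hc mice. The shares of all genes were 9.45% (higher) and 6.51% (lower) for ATV-TfR mice and 4.13% and 4.02% for ATV-CD98hc mice. Cldn5, a tight junction protein of endothelial cells, went from 0.705 and 0.877 CPM to 64.9 and 46.9 in ATV-TfR mice and from 0.724 and 2.38 to 52.3 and 41.4 in ATV-CD98hc mice. It is both on that list and an endothelial marker. The transcription factor gene Foxq1 had 0 UMIs in the ATV-TfR negative bins and 4.63 and 5.92 CPM in the high bins, and in ATV-CD98hc mice it had 2 UMIs in the negative and 5 in the high bins. Abcb1a went from 0.282 and 0.626 CPM to 8.61 and 10.9 in ATV-TfR mice, and Sox17, another transcription factor gene, rested on 1 UMI in the negative and 5 in the high bins of ATV-CD98hc mice. The summed endothelial markers were also higher in these high bins, at 205 and 264 CPM in ATV-TfR and 157 to 181 in ATV-CD98hc mice, and their part in these calls was not tested. Of 16 receptors, 3 were called higher and 1 lower in ATV-TfR mice, led by Fzd3 (1.09), Fzd10 (-0.82) and Lrp5 (0.60). In ATV-CD98hc mice 2 were called higher and 2 lower, led by Ror2 (1.47), Fzd2 (-0.96) and Fzd3 (0.96). Of 10 ligand genes tested among 21, Wnt8b (-1.74) was called in ATV-TfR mice and Wnt6 (2.95) and Wnt5a (1.63) in ATV-CD98hc mice. Of 5 extracellular inhibitors tested among 12, Dkk3 (0.62) was called in ATV-TfR mice, and Sfrp1 (-3.30), Sfrp5 (1.04) and Dkk3 (-0.86) in ATV-CD98hc mice. Wls, which carries Wnt ligands to the cell surface, was called lower in both treatments (-0.36 and -0.57, ATV-TfR first). Among the 17 intracellular genes, Ctnnb1 was called higher in ATV-TfR mice (0.74), and the feedback target Tnfrsf19 was called lower in both (-0.29 and -1.33).

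Over whole pools, Lef1 in astrocyte-like cells was at 16.3 and 16.7 CPM in ATV-TfR, 14.0 and 13.6 in ATV-CD98hc and 21.9 in the 1 control IgG pool with enough cells. That pool took 5127 of its 5149 astrocyte-like cells from the negative bin, and its spread was assumed to be that of the ATV pools, which are sums over all bins. The fit put Lef1 below control IgG in ATV-CD98hc (-0.66 ± 0.09, edgeR adjusted p = 0.0124, with 0.190% of all genes called lower) and in ATV-TfR (-0.37 ± 0.09, adjusted p = 0.0476, with 0.581% called lower). With 1 control IgG pool of another bin makeup, no difference between treatments is read from these values. With the negative bins alone, a comparison added after the data were seen, neither call held. The change was -0.15 for ATV-CD98hc (adjusted p = 1.00, with 0.0342% of all genes called in either direction) and -0.30 for ATV-TfR (adjusted p = 1.00, with 0.137% called), and Lef1 stood at 21.9 CPM in control IgG, 21.5 and 18 in ATV-CD98hc and 19.0 and 16.9 in ATV-TfR. The call in ATV-TfR was lost in 6 of 10 alternatives, among them without ATV-CD98hc replicate 1 and without ATV-CD98hc replicate 2, over which the change ran from -0.39 to -0.30. That in ATV-CD98hc was also lost without ATV-CD98hc replicate 2 (-0.65, adjusted p = 0.0656). Between the ATVs, Lef1 (0.29 ± 0.07, adjusted p = 0.0201) and Ndp (0.31 ± 0.06, adjusted p = 9.94e-03) were called higher in ATV-TfR, with 7.07% of all genes called higher. Ndp was at 58.3 and 56.6 CPM in ATV-TfR and 44.9 and 49.96 in ATV-CD98hc pools, without overlap. The call of Lef1 was lost with DESeq2 (0.29, adjusted p = 0.0538) and without ATV-CD98hc replicate 1 or 2, and that of Ndp without ATV-CD98hc replicate 1 (0.22, adjusted p = 0.087). In the negative bins alone neither was called, with -0.15 for Lef1 and no change to 2 decimals for Ndp, where 0.637% of all genes were called. These sums run over all bins, and the share of telencephalic cells in each bin, given above, differed between the treatments.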

How the data were processed

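The authors deposited 1 matrix of whole-number UMI counts per gene and cell barcode, made with Cell Ranger 7.1.0 on mm10 (GRCm38), per the file headers and the submitters' processing notes, with no normalization, and the deposited gene, barcode and library tables name its rows and columns. The annotation release and how cells were called are not given in the sources. Of 265025 barcodes, 249715 reached 500 genes and 800 UMIs with no more than 10% mitochondrial UMIs. Simulated-doublet scores then removed 15492 (0.19% to 8.23% per library, at 0.4% per 1000 barcodes). The remaining cells were clustered on 2000 variable genes, without the 10 members, and 50 principal components (15 neighbours, resolution 1), and clusters and subtypes were named from marker lists. The 10 members, the 7 lists of 86 pathway genes and the markers were chosen with earlier results of these data known.

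UMIs were summed per class and library (at least 20 cells: 21 libraries for endothelial-like cells, 17 for astrocyte-like cells, and 6 and 5 pools) and tested with edgeR 4.0.16 in R 4.3.3 (TMM, filterByExpr, quasi-likelihood, 1 mean per treatment and bin), and SE is the absolute log2 change over the root of F. The pathway lists are described for high minus negative, where of each list up to 3 genes past the threshold with the largest absolute change are named, and others that are named were chosen after their values were seen. A gene that this rule would name is not reported here. Bins of a pool share their mice. Deviations of same-numbered libraries from their group means correlated with r of 0.04 to 0.92 in endothelial-like cells and -0.20 to 0.70 in astrocyte-like cells. Nothing says that a pool was dissociated more than once. The p-values rest on the spread between libraries of the same group, pooled over all groups of a fit, whatever their treatment. Without the replicate block, the bins of a pool were counted as independent libraries, although only 2 pools stand behind each treatment. On data simulated for ATV-TfR high minus negative in endothelial-like cells (14094 genes), 40 of 100 genes changed by a log2 of 1 and 91 of 100 changed by 2 were called, and 7 unchanged genes were. The simulated libraries were drawn independently, from the same average profile apart from the changed genes. They had no shared pools and no differing makeup, so the error rate of the real comparison was not measured. Alternatives were RLE scaling, DESeq2 1.42.0, other filters and minimum cell numbers, doublets kept, members kept in the clustering, the replicate block and leaving out each replicate. The clustering used Python 3.11.15, igraph 0.11.9, numpy 2.4.6 and scipy 1.17.1. Intervals are 95% exact binomial and cover counting error only.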

Additional observations from a re-analysis of the deposited data

Results flagged for a closer look

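The change of Ndp from the negative to the medium bin in astrocyte-like cells was called different between the treatments by a test of the difference itself, and the call was lost in 8 of 16 alternatives. ATV-TfR minus ATV-CD98hc was 0.68 on the log2 scale (edgeR interaction term, adjusted p = 0.0392). The medium bin lay above the negative bin in both ATV-TfR pools and below it in both ATV-CD98hc pools. Within telencephalic (0.24, adjusted p = 0.903) and non-telencephalic astrocytes (0.62, adjusted p = 0.232) the difference was not called by edgeR. Telencephalic astrocytes, in which Ndp was higher, were 27.5% and 31.2% of astrocyte-like cells in the ATV-TfR medium bins and 4.67% and 6.38% in those of ATV-CD98hc. Their part in the call was not tested.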

How the results depend on the processing

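Among the alternatives to the counts of genes called among the 10, 269 stayed within 1.5 times the count reported and 78 did not. Apcdd1 stayed called between the high and negative bins of endothelial-like cells in both ATVs under 14 of 15 alternatives, the exception being capillary cells alone. In endothelial-like cells the other counts were, for ATV-TfR high minus negative, 5 with the members among the clustering genes and 0 in capillary cells (at least 5 cells, chosen after seeing the data, as are all subtype and marker-free alternatives below). They were 0 in capillary cells for ATV-CD98hc high minus negative, 6 with doublets kept and 0 in capillary cells for ATV-TfR medium, and 1 with the members among the clustering genes and 0 in capillary cells for ATV-CD98hc medium. For ATV-TfR low they were 4 with doublets kept and 0 in capillary cells, for ATV-CD98hc low 1 with DESeq2 and 1 with doublets kept, and for control IgG low 1 with a minimum count of 50 and 0 in capillary cells at either minimum. For the high bins the count was 3 with doublets kept, and over pools with low bins alone 7, 7 and 1.

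In astrocyte-like cells the counts were 0 within telencephalic and 0 within non-telencephalic cells for ATV-CD98hc low, and 1 with doublets kept and 1 in non-telencephalic cells for ATV-TfR medium. For ATV-CD98hc medium they were 0 in telencephalic cells and 0 without endothelial-marker cells, for ATV-TfR high 0 in telencephalic cells, and for ATV-CD98hc high 0 in non-telencephalic cells and 1 without endothelial-marker cells. The difference in medium changes had 0 with RLE, 2 with DESeq2, 0 with a minimum count of 50, 2 without a filter and 0 in each of the 3 cell subsets. Over pools, ATV-TfR minus control IgG had 2 with DESeq2, 0 with a minimum count of 50 and 2 without a filter, and ATV-TfR minus ATV-CD98hc had 1 with DESeq2. With the negative bins alone, added after seeing the data, all 3 comparisons over pools had 0. In capillary cells, high minus low, the counts were 1 with DESeq2 (ATV-TfR) and 1 with a minimum count of 50 (ATV-CD98hc).

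With the replicate block, which pairs bins of the same mice, the counts were 4 and 3 for high minus negative, 4 and 3 for medium, 1 and 1 for low (ATV-TfR and ATV-CD98hc in endothelial-like cells), 3 between the high bins, 2 for ATV-CD98hc low and 6 for ATV-TfR high in astrocyte-like cells, and 4 in ATV-CD98hc capillary cells. It changed no other call than those given with the results.

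Leaving out 1 replicate gave 1 to 3 (ATV-TfR high), 1 to 2 (ATV-CD98hc high), 0 to 4 (ATV-TfR medium), 1 to 2 (ATV-CD98hc medium), 0 to 1 (ATV-TfR low), 0 to 2 (control IgG low) and 0 to 1 (high bins) in endothelial-like cells. It gave 0 to 5 (ATV-TfR high), 1 to 2 (ATV-CD98hc high), 0 to 1 (ATV-CD98hc low), 1 to 3 (ATV-CD98hc medium) and 0 to 1 (difference) in astrocyte-like cells. It gave 1 to 3, 0 to 2 and 0 to 2 over astrocyte-like pools (ATV-TfR and ATV-CD98hc minus control IgG, and ATV-TfR minus ATV-CD98hc), and 1 to 2 in ATV-CD98hc capillary cells. A lone sample left in a group was assumed to vary like the other groups.

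Direction turned for Axin2 (ATV-TfR medium, capillary, -0.23), Fzd4 (ATV-TfR low, capillary, 0.59), Adgra2 (ATV-CD98hc medium, telencephalic, -5.14, fitted against 0 UMIs) and Apcdd1 (ATV-TfR high, telencephalic, -0.0307), and, over astrocyte-like pools with the negative bins alone, for Lef1 (-0.1501) and Ndp (-0.0006) in ATV-TfR minus ATV-CD98hc. In negative bins alone the levels were 544 CPM for Lef1, 61.8 for Axin2, 200.1 for Apcdd1 and 96.2 for Tspan12 in endothelial-like cells, and 96.6 for Wnt7b in astrocyte-like cells. The planned fits of control IgG high minus negative, and of capillary cells against the ATV negative bins at 20 cells, could not be made. The cause of these changes was not tested. Each ATV negative bin held 57 to 125 endothelial-like cells.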
